A study of Mus musculus with 8 samples.

Results

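The 10 genes *Pdpn*, *Plet1*, *Ly6a*, *Ly6d*, *Ly6e*, *Sox9*, *Lgr5*, *Lgr6*, *Cd24a*, and *Epcam*, used in the field as markers of progenitor and junctional thymic epithelial cells (TECs), were examined in RNA-sequencing data from sorted embryonic TECs. They were taken by gene symbol from the 55450 genes of the deposited table. All samples were sorted as CD45-EpCAM+ TECs from mouse embryos at day 17. The embryos carried a tdTomato reporter in the *Ccl21a* locus together with a *Tnfrsf11a*-Venus transgene, which reports RANK. The 3 populations shared this genotype and differed in the reporters by which they were sorted, with 3 libraries of CCL21+RANK-, 3 of CCL21-RANK+, and 2 of CCL21-RANK- cells, hereafter CCL21+, RANK+, and reporter-negative TECs. These names refer to fluorescence, and EpCAM, the product of 1 of the 10 genes, was itself a sorting antigen. The study describes its replicates as biological. Neither the number of embryos in a library nor the sharing of embryos between libraries is given in the sources used here, so p-values measure the spread between these libraries. Library totals after rounding were 59677342, 46003149, and 55116934 counts for CCL21+ #1 to #3, 57286773, 50146758, and 42751858 for RANK+ #1 to #3, and 67451448 and 71625319 for reporter-negative #1 and #2.

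Thymic epithelium consists of cortical cells, which support early T cell development, and medullary cells (mTECs), which present self-antigens, and both arise from bipotent progenitors of the pharyngeal endoderm. Podoplanin (*Pdpn*) has been used as a marker of junctional TECs at the border of cortex and medulla in the postnatal thymus. PLET1 marks fetal TEC progenitors, whereas the GPI-anchored proteins encoded by *Ly6a* (Sca-1) and *Ly6d*, together with CD24, have been used to divide TECs into progenitor-like and more mature subsets. *Sox9*, *Lgr5*, and *Lgr6* are stem cell genes in other epithelia, and the Lgr receptors bind R-spondins and thereby raise Wnt signals.

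RefSeq sequence for the 250 bases before the transcription start (GRCm38.p6) was matched for 4 of the 10 genes, *Pdpn*, *Plet1*, *Lgr6*, and *Epcam*. Those of *Epcam* (chr17:87635729-87635978, plus strand) and *Pdpn* (chr4:143299565-143299814, minus strand) are shown because these 2 genes differed between RANK+ TECs and both other populations in opposite directions. That of *Plet1* (chr9:50494275-50494524, plus strand) is shown because it held the single motif match, and it was chosen after that match was seen. Sequences run 5′ to 3′ on the gene's strand, and capitals mark the motif.
Epcam: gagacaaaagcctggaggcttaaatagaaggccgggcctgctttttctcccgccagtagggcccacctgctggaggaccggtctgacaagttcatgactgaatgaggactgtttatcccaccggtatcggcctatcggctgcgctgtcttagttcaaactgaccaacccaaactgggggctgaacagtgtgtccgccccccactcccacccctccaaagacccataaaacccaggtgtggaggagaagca
Pdpn: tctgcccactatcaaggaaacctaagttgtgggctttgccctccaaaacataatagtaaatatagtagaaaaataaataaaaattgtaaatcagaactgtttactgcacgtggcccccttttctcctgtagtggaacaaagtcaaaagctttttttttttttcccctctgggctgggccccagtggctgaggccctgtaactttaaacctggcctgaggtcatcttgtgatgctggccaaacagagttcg
Plet1: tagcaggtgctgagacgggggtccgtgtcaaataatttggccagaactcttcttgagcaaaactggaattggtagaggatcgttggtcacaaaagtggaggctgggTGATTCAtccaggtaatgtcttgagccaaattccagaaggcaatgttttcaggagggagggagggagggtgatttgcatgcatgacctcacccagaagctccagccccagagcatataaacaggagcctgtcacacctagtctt
The motifs searched on both strands were CTTTGAT (TCF/LEF, present in 3.21% of 32851 RefSeq upstream windows of this length), TGANTCA (AP-1, 6.75%), and GGGNNTTCC (NF-kB, 4.98%). N stands for any base, so that TGANTCA is a loose AP-1-like pattern, and a match does not show binding. TGATTCA at position -144 of *Plet1*, with T as the free base, was the match found in the 4 windows, and the other motifs had none. The GC content was 43.2% for *Pdpn*, 50.0% for *Plet1*, 56.4% for *Epcam*, and 65.2% for *Lgr6*.

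The genes spanned a wide range of levels. On the RPKM scale, which divides counts by exon length and library total, *Ly6e* and *Epcam* were the highest of the 10 in every library. *Ly6e* averaged 134 ± 14.8 RPKM (SD, n = 3) in CCL21+, 120 ± 12.5 RPKM (SD, n = 3) in RANK+, and 83.2 ± 10.1 RPKM (SD, n = 2) in reporter-negative TECs, with population means above 97.9% to 99.0% of the tested protein-coding genes. *Lgr5* did not exceed 0.0816 RPKM in any library and was carried by 17 to 50 counts. The order of the remaining genes differed between populations. *Pdpn* had rank 3 of the 10 in all 3 CCL21+ libraries but rank 6 or 7 in RANK+ libraries, whereas *Ly6d* had ranks 7 to 9 in CCL21+ libraries and ranks 3 to 5 in RANK+ libraries. In bulk RNA, fewer cells of a type and less RNA per cell cannot be told apart.

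**Figure D1:**
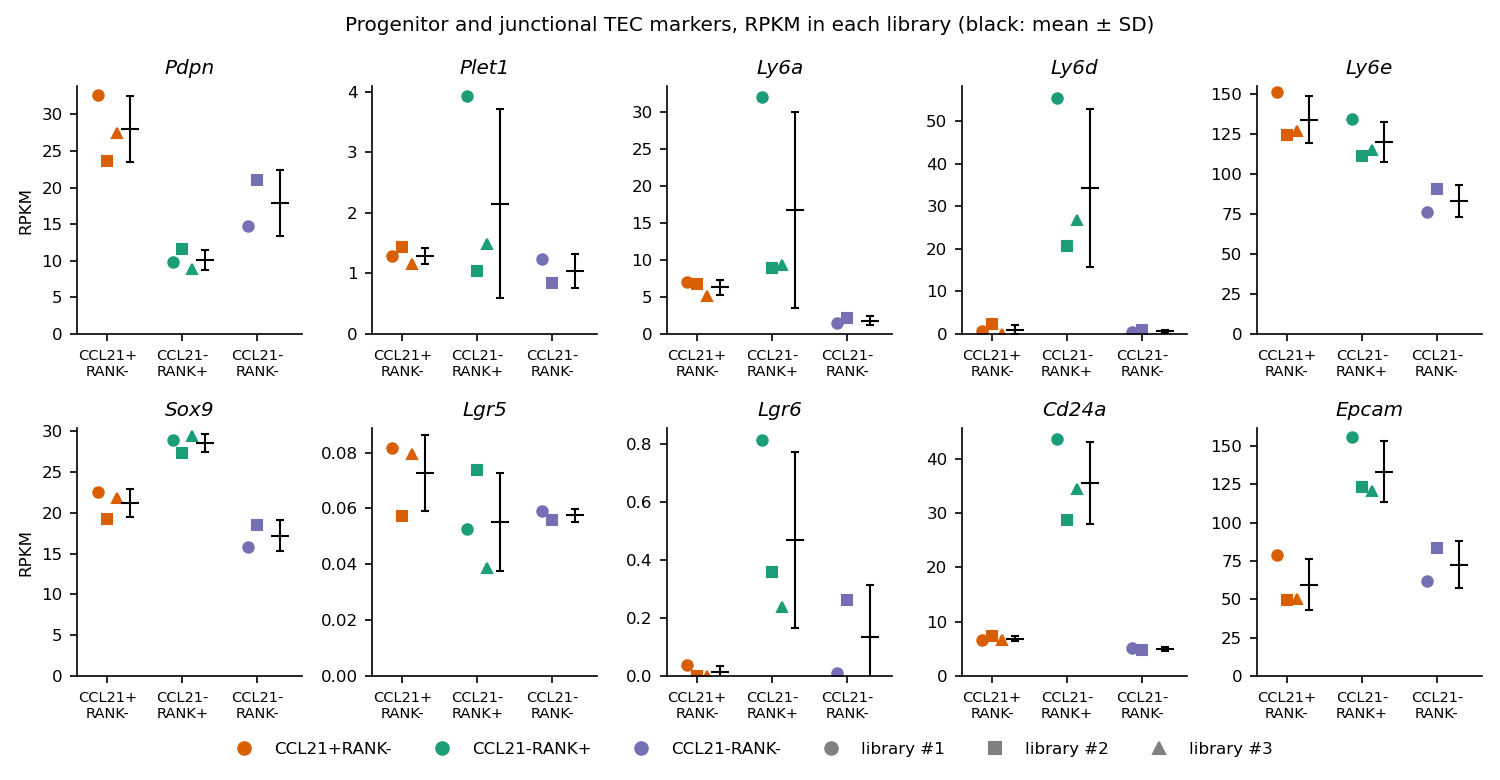
RPKM of the 10 genes in each library (points, colour by population and shape by library number) with mean ± SD beside them in black, on linear axes from 0 that differ between panels. *Ly6d* and *Cd24a* are high in the 3 RANK+ libraries, *Pdpn* is lowest there, and *Lgr5* does not exceed 0.0816 RPKM.

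Each pair of populations was compared in a single edgeR quasi-likelihood fit of all 8 libraries, and a gene was called when its adjusted p-value was below 0.05, its fold change exceeded 1.5, and its mean in the higher population exceeded 1 RPKM. The 3 comparisons share libraries and are not independent. All 10 genes passed the expression filter. Between CCL21+ and RANK+ TECs, 1 of the 10 was called higher in CCL21+ (*Pdpn*), beside 15.4% of all 21451 genes tested, and 4 were called lower (*Ly6a*, *Ly6d*, *Cd24a*, *Epcam*), beside 15.4% of all genes. Between RANK+ and reporter-negative TECs, 5 were called higher in RANK+ (*Ly6a*, *Ly6d*, *Sox9*, *Cd24a*, *Epcam*), beside 14.4% of all genes, and 1 lower (*Pdpn*), beside 15.1%. Between CCL21+ and reporter-negative TECs, 2 were called higher in CCL21+ (*Pdpn*, *Ly6e*), beside 4.35% of all genes. None was called lower there by edgeR or by DESeq2, beside 3.66% of all genes, and 1 (*Lgr6*) was lower at an unadjusted p under 0.05 in edgeR. Without RANK+ #1, *Cd24a*, *Ly6d*, and *Epcam* were called lower in CCL21+ than in RANK+ TECs and *Ly6a* was not. The single gene called in a direction was near the share among all genes. The median log2 fold change of the 10 genes was -0.81 for CCL21+ over RANK+, 0.40 for CCL21+ over reporter-negative, and 0.82 for RANK+ over reporter-negative, where the medians of all genes tested were -0.11, 0, and 0.06.

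**Figure D2:**
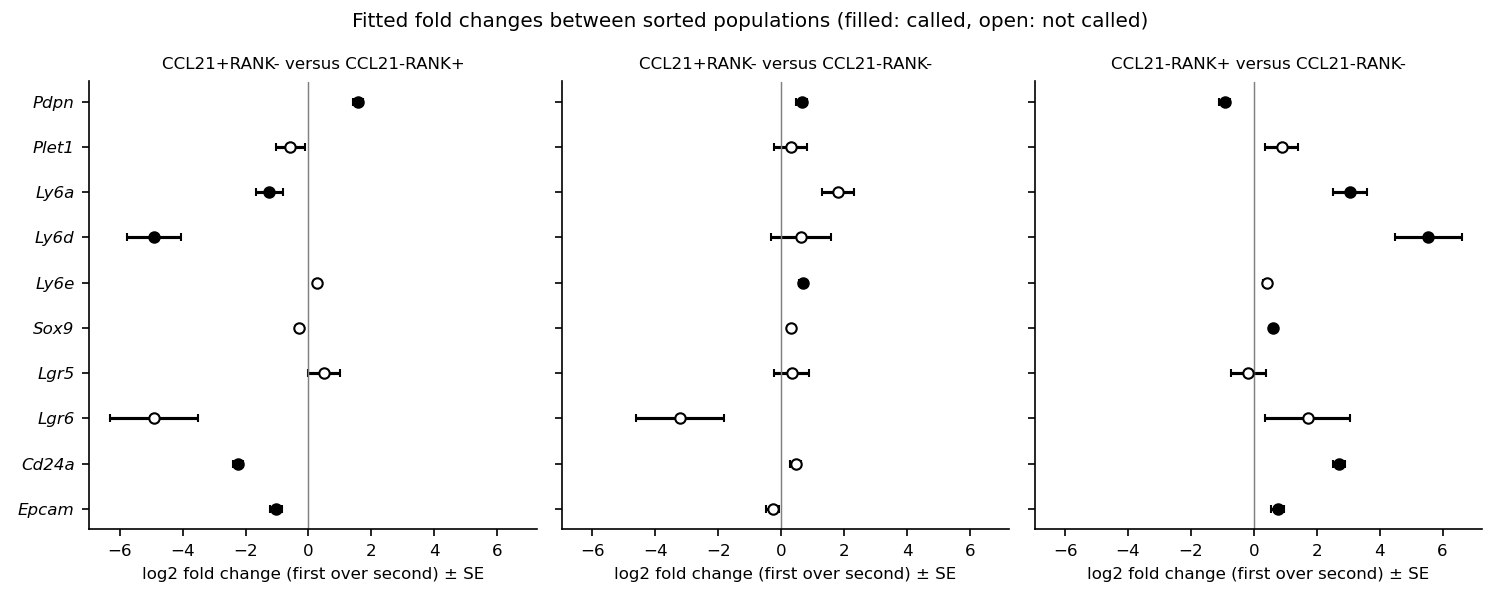
Fitted log2 fold change (first population over second) ± SE of the 10 genes in the 3 comparisons, with filled points for called genes and open points for others. *Ly6d* has the lowest called value, -4.90, in the first panel, and the wide bars of *Lgr6* go with counts of 0 in 2 libraries.

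*Ly6d* (chr15:74762056-74763620, minus strand, 3 exonic blocks) showed the largest called difference among the 10 genes. It encodes a GPI-anchored surface protein that also marks early B lineage cells. *Ly6d* was at 55.5, 20.7, and 26.7 RPKM in RANK+ #1 to #3, at 0.766, 2.25, and 0.0488 RPKM in CCL21+ #1 to #3, and at 0.418 and 0.92 RPKM in reporter-negative #1 and #2. Every RANK+ library lay above all others, and #1 was the highest of the 3. The fitted level was 30.0-fold higher in RANK+ than in CCL21+ TECs (log2 fold change -4.90 ± 0.86 SE for CCL21+ over RANK+, adjusted p = 0.00105, edgeR) and 46.7-fold higher than in reporter-negative TECs (5.54 ± 1.06 SE, adjusted p = 0.00202, edgeR). CCL21+ and reporter-negative TECs overlapped (log2 fold change 0.64 ± 0.96 SE, adjusted p = 0.753, edgeR), and the CCL21+ level rests on 34, 77, and 2 counts. The log2 fold change of CCL21+ over RANK+ TECs was -6.29 without CCL21+ #2 and -4.31 without CCL21+ #3, and that of RANK+ over reporter-negative TECs was 6.13 without reporter-negative #2, with *Ly6d* called each time.

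*Ly6a* (chr15:74994877-74998031, minus strand, 4 exonic blocks), which encodes Sca-1, a surface marker of haematopoietic stem cells, lies on the same chromosome and followed the order RANK+, CCL21+, reporter-negative. Its levels were 31.9, 8.94, and 9.32 RPKM in RANK+, 6.98, 6.71, and 5.19 RPKM in CCL21+, and 1.43 and 2.21 RPKM in reporter-negative libraries. The 3 populations did not overlap, but RANK+ #1 stood far above the other libraries. *Ly6a* was 8.33-fold higher in RANK+ than in reporter-negative TECs (log2 fold change 3.06 ± 0.55 SE, adjusted p = 0.00136, edgeR), or 2.27 on the log2 scale without RANK+ #1. CCL21+ exceeded reporter-negative TECs by 1.81 ± 0.52 SE on the log2 scale, which missed the threshold in this fit (adjusted p = 0.0526, edgeR) but was called by the DESeq2 Wald test. The difference between CCL21+ and RANK+ TECs was called (log2 fold change -1.25 ± 0.43 SE, adjusted p = 0.0343, edgeR) but depended on RANK+ #1, without which it was -0.45 with an adjusted p of 0.145 in edgeR. Leaving out any 1 of the CCL21+ libraries also ended that call.

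*Ly6e* (chr15:74955051-74959905, plus strand, 4 exonic blocks), which encodes a broadly expressed protein of the same family, lies between them and did not share their pattern. *Ly6e* was at 151, 124, and 127 RPKM in CCL21+, 134, 111, and 115 RPKM in RANK+, and 76.1 and 90.3 RPKM in reporter-negative libraries. CCL21+ and RANK+ TECs overlapped (log2 fold change 0.28 ± 0.12 SE, adjusted p = 0.0696, edgeR), and both reporter-negative libraries lay below them. *Ly6e* was 1.62-fold higher in CCL21+ than in reporter-negative TECs (0.69 ± 0.14 SE, adjusted p = 0.0105, edgeR). The call ended when either reporter-negative library was left out, whereas the log2 fold change stayed at 0.60 to 0.78 whichever library was left out. The 1.33-fold difference of *Ly6e* between RANK+ and reporter-negative TECs had an adjusted p of 0.0284 (edgeR) but was under the fold threshold.

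Of 40 listed genes of the Ly6 and uPAR family, to which these 3 genes belong, 38 were in the table and 32 were tested. In CCL21+ relative to RANK+ TECs, 15 were called lower (*Ly6a*, *Ly6c1*, *Ly6c2*, *Ly6d*, *Ly6f*, *Ly6g*, *Ly6g6c*, *Ly6h*, *Ly6i*, *Lypd2*, *Lypd3*, *Lypd6*, *Lypd8*, *Pinlyp*, *Psca*) and 1 higher (*Lypd1*), beside 15.4% of all genes in either direction. In RANK+ relative to reporter-negative TECs, 14 were called higher (the same genes without *Lypd2* and *Pinlyp* but with *Lynx1*) and 1 lower (*Lypd1*), beside 14.4% and 15.1% of all genes. In CCL21+ relative to reporter-negative TECs, 2 were called higher (*Ly6e*, *Lypd6b*) and 1 lower (*Lypd1*), beside 4.35% and 3.66%. Of the 15, 8 (*Ly6c1*, *Ly6c2*, *Ly6f*, *Ly6g*, *Ly6g6c*, *Ly6i*, *Lypd8*, *Psca*) had at most 5 counts in every CCL21+ library and were tested because of their counts in RANK+ libraries, so that their direction follows from the expression filter. These 8 genes had at most 15 counts in any reporter-negative library, so that their calls over reporter-negative TECs follow from the filter as well. The counts of called family genes are therefore given as a description, and no median is given.

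On chromosome 15, 19 family genes lie between positions 74714839 and 75599481. Of these, *Psca*, *Ly6d*, *Ly6i*, *Ly6a*, *Ly6c1*, *Ly6c2*, *Ly6g*, *Ly6f*, and *Ly6h* were called higher in RANK+ TECs in both comparisons with that population. Of all genes, 15.4% were called higher in RANK+ than in CCL21+ TECs and 14.4% higher than in reporter-negative TECs. *Ly6i*, *Ly6c1*, *Ly6c2*, *Ly6g*, and *Ly6f* had at most 5 counts in every library outside RANK+, and *Psca* at most 15. They were tested because of their counts in RANK+ libraries, so that their direction follows from the expression filter in both comparisons. *Ly6g*, known as a neutrophil marker, was at 17.2, 8.3, and 9.21 RPKM in RANK+ libraries and at 0.0315 RPKM or less in the other 5. *Ly6c2*, known from monocytes, averaged 3.10 RPKM in RANK+ TECs and had no counts in CCL21+ libraries, so that it was at least 150-fold higher in RANK+ by a floor of 3 counts per library. *Ly6f* had no counts in either other population and was at least 39.6-fold higher than in CCL21+ and at least 52.0-fold higher than in reporter-negative TECs. *Lypd8*, a family gene outside this span, was at least 81.5-fold higher in RANK+ than in CCL21+ TECs. *Ly6c1* and *Ly6c2* are close copies whose expected counts were not whole in RANK+ libraries, as when RSEM divides shared reads, so their separate levels are uncertain. The summed level of 8 myeloid and B cell markers (most abundant, *Lyz2*) was 58.1, 16.2, and 21.3 RPKM in RANK+ libraries and at most 0.286 RPKM elsewhere, and was also highest in RANK+ #1. Its part in the levels of *Ly6a*, *Ly6d*, and their neighbours was not tested.

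**Figure D3:**
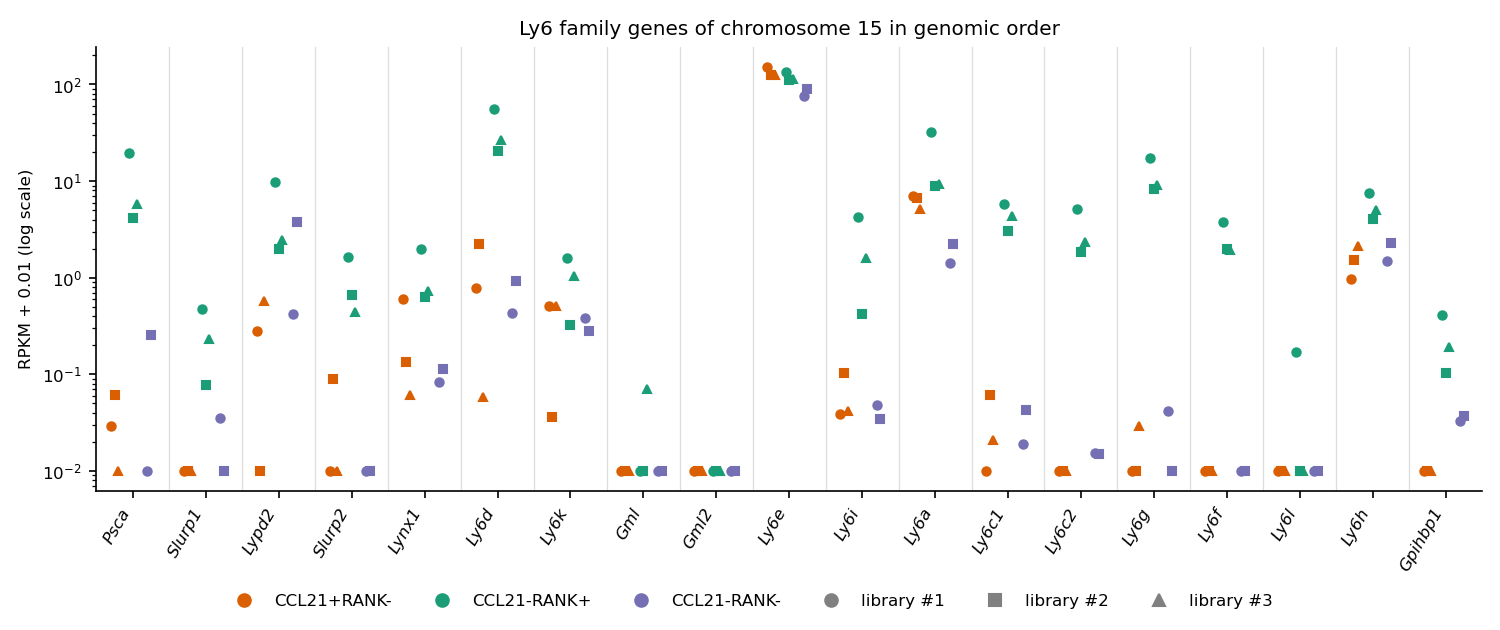
RPKM + 0.01 (log axis) of 19 Ly6 family genes in their order along chromosome 15, with 1 point per library, colour by population and shape by library number. Points at 0.01 are libraries without counts. *Ly6e* stands between genes that are high in RANK+ libraries, for example *Ly6d* at 20.7 to 55.5 RPKM, and is itself at 76.1 RPKM or more in every library.

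Among the surface proteins of adhesion, *Cd24a* had the lowest adjusted p-values of the 10 genes in both comparisons with RANK+ TECs. *Cd24a* (chr10:43578284-43584265, plus strand, 4 exonic blocks) encodes CD24, a GPI-anchored sialoglycoprotein that is also abundant on thymocytes. It was at 43.7, 28.7, and 34.4 RPKM in RANK+, 6.57, 7.42, and 6.63 RPKM in CCL21+, and 5.19 and 4.77 RPKM in reporter-negative libraries. The RANK+ libraries lay far above the others, and CCL21+ and reporter-negative libraries did not overlap but were close. *Cd24a* was 4.72-fold higher in RANK+ than in CCL21+ TECs (log2 fold change -2.24 ± 0.16 SE for CCL21+ over RANK+, adjusted p = 2.96e-06, edgeR) and 6.52-fold higher than in reporter-negative TECs (2.70 ± 0.19 SE, adjusted p = 3.52e-06, edgeR). The difference of CCL21+ over reporter-negative TECs was 0.47 ± 0.17 SE on the log2 scale (adjusted p = 0.117, edgeR). Summed markers of thymocytes (14 genes, the most abundant *Rag1* over all libraries and *Thy1* in RANK+ libraries on average) were at 32.8, 14.995, and 23.8 RPKM in RANK+, 14.1, 5.89, and 7.67 RPKM in CCL21+, and 4.54 and 3.86 RPKM in reporter-negative libraries. *Ptprc*, which encodes the CD45 used to gate out blood cells, belongs to this list and was at 0.576, 0.177, and 0.422 RPKM in RANK+, 0.193, 0.112, and 0.0684 RPKM in CCL21+, and 0.0518 and 0.0351 RPKM in reporter-negative libraries. CCL21+ and RANK+ libraries overlapped in *Ptprc*, and reporter-negative libraries were the lowest. The part of thymocytes in *Cd24a* was not tested.

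*Epcam* (chr17:87635979-87651129, plus strand, 10 exonic blocks), which encodes the epithelial adhesion molecule of the sort gate, was present in all libraries at 49.5 RPKM or more. It was at 156, 123, and 121 RPKM in RANK+, 78.9, 49.5, and 50.4 RPKM in CCL21+, and 61.7 and 83.7 RPKM in reporter-negative libraries. RANK+ libraries were above the rest, and CCL21+ and reporter-negative libraries overlapped (log2 fold change -0.27 ± 0.21 SE, adjusted p = 0.467, edgeR). *Epcam* was 2.05-fold higher in RANK+ than in CCL21+ TECs (log2 fold change -1.03 ± 0.19 SE for CCL21+ over RANK+, adjusted p = 0.00127, edgeR). Its 1.69-fold difference from reporter-negative TECs (0.76 ± 0.21 SE, adjusted p = 0.0147, edgeR) lost the call without reporter-negative #1 (0.61, adjusted p = 0.125, edgeR).

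Of 10 genes for EpCAM, its partners, and the proteases and inhibitors that act with it, 6 were called lower in CCL21+ than in RANK+ TECs and 2 higher (*Cldn1*, *Spint1*), beside 15.4% of all genes in either direction. The 6 were *Epcam*, the tetraspanins *Cd9* and *Tspan8*, *Cd44*, the protease gene *St14*, and *Cldn7*, whose claudin binds EpCAM. *Cldn7* was at 55.1, 33.8, and 46.5 RPKM in RANK+, 7.23, 3.19, and 4.17 RPKM in CCL21+, and 1.06 and 1.25 RPKM in reporter-negative libraries. It was also called higher in CCL21+ than in reporter-negative TECs (log2 fold change 2.08 ± 0.32 SE, adjusted p = 0.0034, edgeR). In CCL21+ relative to reporter-negative TECs, 4 of the 10 were called higher (*Cldn1*, *Cldn7*, *Spint1*, *Spint2*) and 2 lower (*Cd9*, *Cd44*), beside 4.35% and 3.66%. In RANK+ relative to reporter-negative TECs, 5 were called higher, beside 14.4% of all genes. None was called lower in edgeR or DESeq2, beside 15.1%, and 1 was lower at an unadjusted p under 0.05 in edgeR. *Cdh1*, which encodes E-cadherin, was at 121 to 169 RPKM over the 8 libraries and was not called in any comparison.

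*Pdpn* (chr4:143267431-143299564, minus strand, 6 exonic blocks), which encodes the mucin-type glycoprotein podoplanin, was the gene of the 10 called lower in RANK+ than in both other populations. It was at 32.7, 23.7, and 27.5 RPKM in CCL21+, 14.8 and 21.1 RPKM in reporter-negative, and 9.84, 11.6, and 8.92 RPKM in RANK+ libraries. The 3 populations did not overlap, and the order was CCL21+, reporter-negative, RANK+. *Pdpn* was 2.98-fold higher in CCL21+ than in RANK+ TECs (log2 fold change 1.58 ± 0.17 SE, adjusted p = 3.85e-05, edgeR) and 1.90-fold lower in RANK+ than in reporter-negative TECs (-0.92 ± 0.18 SE, adjusted p = 0.00216, edgeR). The 1.57-fold difference of CCL21+ over reporter-negative TECs was at the threshold (0.65 ± 0.18 SE, adjusted p = 0.0491, edgeR). Leaving out 1 library at a time gave log2 fold changes of 0.48 to 0.84, in part under the fold threshold. The adjusted p-value in edgeR stayed under 0.05 in 2 of these 8 fits. *Pdpn* is also expressed by lymphatic endothelium and fibroblasts. Mesenchymal markers summed to 2.64 to 4.08 RPKM in CCL21+ and 27.2 to 52.9 RPKM in RANK+ libraries, and endothelial markers to 0.710 to 0.827 RPKM and 5.09 to 9.47 RPKM. Of the 9 mesenchymal genes, 5 were called lower in CCL21+ than in RANK+ TECs, and 2 that were not called, *Pdgfra* and *Twist1*, were higher at an unadjusted p under 0.05 in edgeR. *Pdgfra*, a defining surface marker of thymic mesenchyme, was at 0.262, 0.171, and 0.154 RPKM in CCL21+ and 0.122, 0.0517, and 0.0303 RPKM in RANK+ libraries (log2 fold change 1.67 ± 0.55 SE, adjusted p = 0.0283, edgeR). *Twist1*, a mesenchymal transcription factor gene, was at 1.28, 0.814, and 0.769 RPKM and at 0.150, 0, and 0.0575 RPKM (3.89 ± 0.89 SE, adjusted p = 0.00477, edgeR). Neither reached the RPKM threshold for a call. Parathyroid markers were high with *Pdpn* in CCL21+ libraries, at 7250, 1814, and 2030 RPKM, and were highest in CCL21+ #1, where 7 of the 10 genes (all but *Plet1*, *Ly6d*, and *Cd24a*) were also at their highest in the population. The part of these cells in the levels of *Pdpn* was not tested.

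Of 10 listed binding partners of podoplanin and CD24 in the table, *Ccl21a* and *Lgals8* were called higher in CCL21+ than in RANK+ TECs and *Cd9*, *Cd44*, and *Msn* lower, beside 15.4% of all genes in either direction. *Ccl21a* encodes the chemokine CCL21, which binds podoplanin, and its locus carried the sorting reporter. *Msn* encodes moesin, which links podoplanin to actin, and was at 103, 92.2, and 95.1 RPKM in RANK+, 21.4, 12.2, and 14.7 RPKM in CCL21+, and 2.54 and 2.45 RPKM in reporter-negative libraries. The other proteins of moesin's family differed less. *Ezr* was at 66.3 to 117 RPKM and *Rdx* at 28.9 to 36.1 RPKM, and neither was called in any comparison. For CCL21+ relative to reporter-negative TECs, 2 of the 10 were called higher (*Ccl21a*, *Msn*) and 2 lower (*Cd9*, *Cd44*), beside 4.35% and 3.66% of all genes. The same 2 genes, *Ccl21a* and *Msn*, were called higher in RANK+ than in reporter-negative TECs, beside 14.4% of all genes. None was called lower there in edgeR or DESeq2 (2 at an unadjusted p under 0.05 in edgeR), beside 15.1%.

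*Sox9* (chr11:112782224-112787760, plus strand, 3 exonic blocks), a transcription factor gene of epithelial progenitors and cartilage, differed little. Its levels were 28.9, 27.3, and 29.4 RPKM in RANK+, 22.6, 19.3, and 21.8 RPKM in CCL21+, and 15.8 and 18.5 RPKM in reporter-negative libraries. The populations did not overlap, and libraries of a population lay close together. *Sox9* was 1.53-fold higher in RANK+ than in reporter-negative TECs (log2 fold change 0.62 ± 0.10 SE, adjusted p = 0.000827, edgeR), just over the fold threshold, and fell below it without reporter-negative #1 (0.57). Between CCL21+ and RANK+ TECs the difference was 1.24-fold (-0.31 ± 0.09 SE, adjusted p = 0.0152, edgeR), below that threshold, and CCL21+ exceeded reporter-negative TECs by 0.31 ± 0.10 SE on the log2 scale (adjusted p = 0.0841, edgeR).

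Of 20 *Sox* genes listed, 19 were tested. For CCL21+ relative to RANK+ TECs, 5 were called lower (*Sox2*, *Sox8*, *Sox10*, *Sox11*, *Sox21*) and 2 higher (*Sox12*, *Sox13*), beside 15.4% of all genes in either direction. *Sox2* had at most 2 counts in every CCL21+ library and was tested because of its counts in RANK+ libraries. Its direction therefore follows from the expression filter. For RANK+ relative to reporter-negative TECs, 5 were called higher (*Sox8*, *Sox9*, *Sox10*, *Sox11*, *Sox21*) and 2 lower (*Sox12*, *Sox13*), beside 14.4% and 15.1%. None was called between CCL21+ and reporter-negative TECs by edgeR or DESeq2, beside 4.35% and 3.66% of all genes, and 3 were higher and 7 lower at an unadjusted p under 0.05 in edgeR. Per exon length, *Sox4* at 60.4 to 94.0 RPKM and *Sox9* were the most abundant of the family in all libraries. *Sox8* and *Sox10*, which with *Sox9* form the SoxE group, stayed far below *Sox9*, with *Sox8* at 1.20 to 1.98 RPKM and *Sox10* at 0.851 to 1.16 RPKM in RANK+ libraries. *Sox12*, a SoxC gene, was at 8.01 to 9.77 RPKM in CCL21+, 9.98 and 14.2 RPKM in reporter-negative, and at most 3.85 RPKM in RANK+ libraries.

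The stem cell receptors *Lgr5* and *Lgr6* were below 1 RPKM in all libraries. *Lgr5* (chr10:115450311-115587780, minus strand, 17 exonic blocks) was at 0.0816, 0.0572, and 0.0795 RPKM in CCL21+, 0.0527, 0.0738, and 0.0387 RPKM in RANK+, and 0.0592 and 0.0558 RPKM in reporter-negative libraries. The populations overlapped, and no difference was detectable at 17 to 50 counts per library. *Lgr6* (chr1:134983301-135105276, minus strand, 20 exonic blocks) was at 0.813, 0.358, and 0.239 RPKM in RANK+, 0.0391, 0, and 0 RPKM in CCL21+, and 0.0108 and 0.261 RPKM in reporter-negative libraries. These values rest on 319, 123, and 70 counts, on 16, 0, and 0 counts, and on 5 and 128 counts. RANK+ lay above CCL21+ TECs in every library (log2 fold change -4.92 ± 1.40 SE, adjusted p = 0.014, edgeR), but *Lgr6* did not reach the RPKM threshold and was not called. Its log2 fold change ranged from -10.40 to -4.33 when 1 library was left out at a time. The lowest came without CCL21+ #1, which held all counts of the population. That value was fitted against 0 counts and does not measure the size of the difference. The 2 reporter-negative libraries differed widely from each other, and 1 of them fell within the range of RANK+ libraries (log2 fold change of RANK+ over reporter-negative 1.71 ± 1.34 SE, adjusted p = 0.324, edgeR). Leaving out reporter-negative #1 or #2 gave 0.77 and 5.18.

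*Lgr4*, which encodes another R-spondin receptor of the group, was the abundant one. *Lgr4* was at 36.5, 30.3, and 40.8 RPKM in CCL21+, 18.5, 24.0, and 26.5 RPKM in RANK+, and 25.5 and 26.8 RPKM in reporter-negative libraries, and was called higher in CCL21+ than in RANK+ TECs (log2 fold change 0.74 ± 0.15 SE, adjusted p = 0.0027, edgeR). Of 20 genes for R-spondins, their receptors, and Wnt targets, all tested, 4 were called higher in CCL21+ than in RANK+ TECs (*Lgr4*, *Lrp6*, *Nkd1*, *Rnf43*) and 6 lower (*Rspo3*, *Znrf3*, *Lrp5*, *Tnfrsf19*, *Smoc2*, *Olfm4*), beside 15.4% of all genes in either direction. The Wnt co-receptors differed in opposite directions. *Lrp6* was at 49.6 to 62.3 RPKM in CCL21+ and 13.5 to 15.6 RPKM in RANK+ libraries, and *Lrp5* at 4.62 to 5.66 RPKM and 9.43 to 10.6 RPKM. The ubiquitin ligase genes *Rnf43* and *Znrf3*, whose products remove Wnt receptors, also went in opposite directions. Of the ligands, *Rspo3* was at 0.994 to 1.51 RPKM in RANK+ libraries and at most 0.168 RPKM elsewhere. *Rspo2* and *Rspo4* had no counts in CCL21+ libraries and were at least 33.3-fold and 26.3-fold higher in RANK+ TECs, but at levels below the RPKM threshold. Both were tested because of their counts in RANK+ libraries, so that their direction follows from the expression filter.

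Of the same list, 4 genes were called higher in RANK+ than in reporter-negative TECs (*Rspo3*, *Lrp5*, *Smoc2*, *Olfm4*) and 6 lower (*Rnf43*, *Lrp6*, *Axin2*, *Nkd1*, *Tnfrsf19*, *Ascl2*), beside 14.4% and 15.1% of all genes. Between CCL21+ and reporter-negative TECs, *Olfm4* was called higher in CCL21+ and *Tnfrsf19* lower, beside 4.35% and 3.66%. *Olfm4* and *Smoc2* accompany *Lgr5* in intestinal crypts, and here *Olfm4* was at 75.5, 71.0, and 75.1 RPKM in RANK+, 15.8, 18.4, and 17.9 RPKM in CCL21+, and 6.93 and 6.12 RPKM in reporter-negative libraries. *Ascl2*, a Wnt-induced transcription factor gene of those crypts, was instead highest in reporter-negative libraries, at 4.45 and 3.66 RPKM. *Axin2*, a general Wnt target, was at 5.43, 5.30, and 5.39 RPKM in RANK+, 5.55, 7.17, and 7.55 RPKM in CCL21+, and 7.55 and 8.13 RPKM in reporter-negative libraries. *Sp5* and *Notum* of the same list went the other way, at 0.665 to 0.858 RPKM and 0.265 to 0.921 RPKM in RANK+ libraries. Elsewhere they were at most at 0.0635 and 0.0678 RPKM. They were below the RPKM threshold and tested because of their counts in RANK+ libraries, so that their direction follows from the expression filter.

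**Figure D4:**
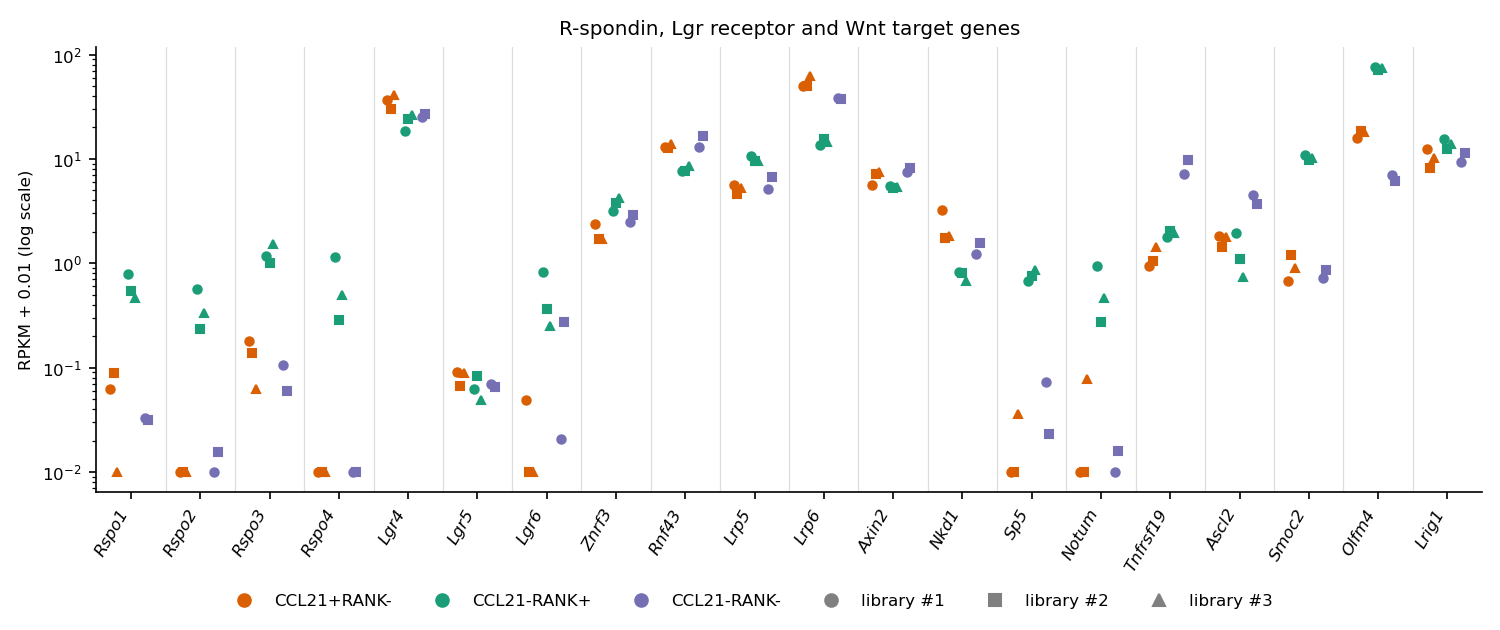
RPKM + 0.01 (log axis) of 20 genes for R-spondins, Lgr receptors, and Wnt regulators and targets, with 1 point per library, colour by population and shape by library number. Points at 0.01 are libraries without counts. *Lgr4* lies between 18.5 and 40.8 RPKM in all libraries, whereas *Lgr5* and *Lgr6* stay below 1 RPKM.

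*Plet1* (chr9:50494525-50505482, plus strand, 5 exonic blocks), which encodes a surface protein of fetal TEC progenitors, was low. It was at 1.28, 1.43, and 1.16 RPKM in CCL21+, 3.93, 1.04, and 1.49 RPKM in RANK+, and 1.24 and 0.846 RPKM in reporter-negative libraries. All populations overlapped, and RANK+ #1 alone stood apart. The log2 fold change of CCL21+ over RANK+ TECs was -0.58 ± 0.46 SE (adjusted p = 0.32, edgeR) and turned to 0.11 without RANK+ #1. The antisense gene *Plet1os* shares 261 exonic bases with *Plet1* and had 0 to 9 counts per library, against 102 to 438 for *Plet1*.

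Of 12 other genes used as TEC progenitor markers, 2 were called higher in CCL21+ than in RANK+ TECs (*Trp63*, *Pax1*) and 7 lower (*Krt15*, *Krt19*, *Cldn3*, *Cldn4*, *Itga6*, *Igfbp5*, *Cd9*), beside 15.4% of all genes in either direction. Between CCL21+ and reporter-negative TECs, 2 were called higher (*Cldn4*, *Itgb4*) and 4 lower (*Krt15*, *Krt19*, *Itga6*, *Cd9*), beside 4.35% and 3.66%. Between RANK+ and reporter-negative TECs, 4 were called higher in RANK+ (*Cldn3*, *Cldn4*, *Igfbp5*, *Fut4*) and 2 lower (*Trp63*, *Pax1*), beside 14.4% and 15.1%. Upper-quartile scaling and the DESeq2 Wald test each called 7 of the 12 higher in this comparison. Of the integrin genes of the hemidesmosome, *Itga6* was at 12.0 to 18.7 RPKM in CCL21+, 26.6 and 33.9 RPKM in reporter-negative, and 40.2 to 61.1 RPKM in RANK+ libraries. *Itgb4* was at 48.9 to 64.0 RPKM in CCL21+, 28.3 and 34.9 RPKM in reporter-negative, and 37.0 to 49.5 RPKM in RANK+ libraries. *Krt15*, a keratin of basal progenitors, differed widely between the reporter-negative libraries, at 4.32 and 22.6 RPKM.

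Genes whose pattern over the 8 libraries was nearest to a called marker were sought by the root mean square difference in centred log2 CPM, as a description. *Cd24a* was nearest to *Lrrk2* (0.11), *Dock10* (0.16), and *Slc38a1* (0.17), where its own spread about its mean was 1.20. *Pdpn* was nearest to *Mfge8* (0.11), *Trip10* (0.12), and *Rab19* (0.13), against its own spread of 0.71. *Mfge8*, which encodes a secreted glycoprotein that bridges apoptotic cells to phagocytes, was at 29.2 to 39.2 RPKM in CCL21+, 22.3 and 27.3 RPKM in reporter-negative, and 13.1 to 14.6 RPKM in RANK+ libraries. Among the 3 genes nearest to *Epcam* were *Ucp2* (0.11) and *Babam2* (0.12), with a spread of 0.52. *Ly6e* was nearest to *Mras* (0.05), *Mafk* (0.08), and *Tor1aip1* (0.08), with a spread of 0.28, and *Sox9* to *Rabac1* (0.05), *Chp1* (0.06), and *Fnbp1l* (0.07), with a spread of 0.25. The likeness was looser for *Ly6a*, nearest to *Tnnt2* (0.28), *Fmod* (0.30), and *Camk1g* (0.31), with a spread of 1.21, and for *Ly6d*, nearest to *Cadm2* (0.37), *Ecel1* (0.46), and *Ccdc3* (0.54), with a spread of 2.98. No *Ly6* gene was among the 3 nearest to *Ly6a* or *Ly6d*.

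The 8 libraries held the RNA of TECs. *Foxn1*, the transcription factor gene that defines this lineage, was at 50.7 to 105 RPKM and *Krt8* at 532 to 1570 RPKM. The CCL21+ libraries also held much RNA of parathyroid genes. In CCL21+ #1, the 6 parathyroid genes summed to 7250 RPKM and the 17 listed TEC genes to 6783 RPKM. In CCL21+ #2 and #3, the parathyroid sums were 1814 and 2030 RPKM, and the TEC sums 6347.5 and 7182 RPKM. The paper describes CCL21+ parathyroid cells beside the embryonic thymus. The share of such cells in the CCL21+ libraries was not tested. *Tnfrsf11a* and *Ccl21a* were highest in the populations named for them but were not confined to these. *Ccl21a* was at 561, 346, and 305 RPKM in CCL21+, 152, 95.9, and 78.2 RPKM in RANK+, and 6.89 and 8.88 RPKM in reporter-negative libraries. *Tnfrsf11a*, which encodes RANK, was at 111, 93.1, and 107 RPKM in RANK+, 8.78, 9.44, and 10.3 RPKM in CCL21+, and 2.62 and 2.26 RPKM in reporter-negative libraries. *Aire*, the regulator of self-antigen expression in mature mTECs, was at 94.1 to 131 RPKM in RANK+ libraries and at most 0.81 RPKM in the others. Of 17 TEC genes, 11 were called higher in CCL21+ than in RANK+ TECs and 4 lower, beside 15.4% of all genes in either direction. The called genes of this list include *Ccl21a* and *Tnfrsf11a*, whose reporters defined the sort, in every comparison. For RANK+ over reporter-negative TECs the counts were 7 higher and 9 lower, beside 14.4% and 15.1%, and for CCL21+ over reporter-negative TECs 4 higher, beside 4.35%, and none lower in edgeR or DESeq2 (0 at an unadjusted p under 0.05), beside 3.66%.

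Markers of other cells were measured in the same libraries. Lower in CCL21+ than in RANK+ TECs were 3 of 14 thymocyte genes, 5 of 9 mesenchymal genes, 2 of 8 tested endothelial genes, 2 of 8 erythroid genes, and 3 of 8 myeloid and B cell genes, and higher were all 6 parathyroid genes, beside 15.4% of all genes in either direction. Higher in RANK+ than in reporter-negative TECs were 6 thymocyte, 5 mesenchymal, 2 endothelial, 1 erythroid, 3 myeloid and B cell genes and 1 parathyroid gene, and lower were 2 parathyroid genes, beside 14.4% of all genes higher and 15.1% lower. Higher in CCL21+ than in reporter-negative TECs were 1 thymocyte gene and all 6 parathyroid genes, beside 4.35% of all genes. *Lyz2*, *Fcer1g*, and *Klf1*, called in both comparisons with RANK+ TECs, had at most 8 counts in every CCL21+ library. They were tested because of their counts in RANK+ libraries, so that their direction follows from the expression filter. In RANK+ libraries, *Col1a1* and *Dcn* had the highest levels of the mesenchymal list, whereas in CCL21+ libraries *Twist1* did. In the endothelial list (most abundant, *Prox1*), *Emcn* and *Lyve1* had no counts in CCL21+ libraries, and *Pecam1* was at 0.410 to 0.743 RPKM in RANK+ libraries. *Cd79a* had no counts in CCL21+ libraries, and *Fcer1g* none in reporter-negative libraries. Erythroid markers (most abundant, *Hbb-bs*) summed to 6.61, 164, and 59.5 RPKM in CCL21+, 188, 287, and 302 RPKM in RANK+, and 453 and 57.2 RPKM in reporter-negative libraries. Every RANK+ library lay above every CCL21+ library in this sum, whereas reporter-negative #1 lay above all other libraries and reporter-negative #2 within the range of CCL21+ libraries. RANK+ #1, the library with the highest *Ly6a*, *Ly6d*, *Plet1*, *Lgr6*, *Cd24a*, and *Epcam*, had the highest sums of thymocyte, mesenchymal, endothelial, and myeloid and B cell markers. The part of these cells in the levels of the 10 genes was not tested.

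**Figure D5:**
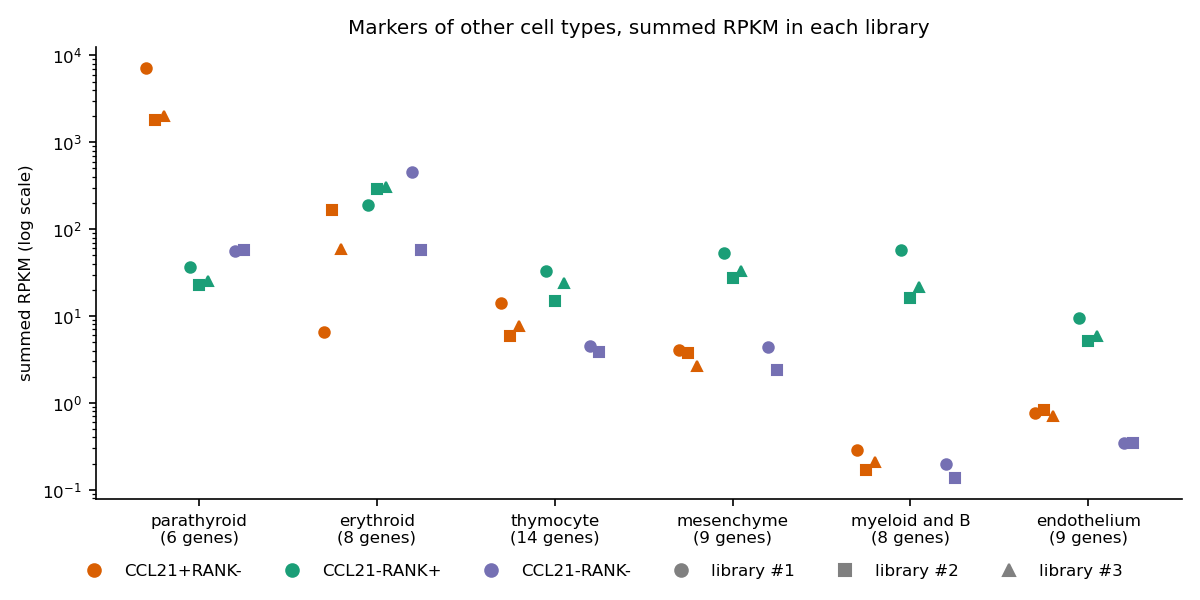
Summed RPKM (log axis) of marker genes of other cell types in each library, colour by population and shape by library number. Parathyroid markers reach 7250 RPKM in a CCL21+ library, and myeloid and B cell markers are at 16.2 to 58.1 RPKM in RANK+ libraries and at most 0.286 RPKM elsewhere.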

How the data were processed

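RNA-sequencing was analysed for CCL21+RANK- (n = 3), CCL21-RANK+ (n = 3), and CCL21-RANK- (n = 2) TECs. The labels name the NEBNext Ultra II Directional kit, whereas the study's methods name a TruSeq Stranded Total RNA protocol analysed in CLC Genomics Workbench. The submitters' processing notes name bcl2fastq 2.20, Trimmomatic, STAR 2.5.1, RSEM 1.3.1, and mm10. The authors deposited RSEM expected counts, neither normalized nor filtered, for 55450 genes, of which all identifiers matched GENCODE M21 (GRCm38). Non-whole values made up 4.46% to 5.94% of a library, and counts were rounded. All values of the 10 genes were whole.

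RPKM was calculated from the library total and the summed exon length. Counts were tested with edgeR 4.0.16 under R 4.3.3 (TMM, default expression filter, quasi-likelihood F) over 21451 genes with Benjamini-Hochberg adjustment, and SEs were derived from F. The thresholds were those of the study. The common biological coefficient of variation was 0.326, and counts of replicate libraries differed beyond sampling noise. Counts of 3 or fewer per library were taken as the floor, which covers counting error only. SEs and SDs include the spread between libraries. *Gm26917* took 6.89% to 19.4% and *Gm42418* 1.47% to 10.7% of each library, which lowers the RPKM of other genes. Whether counting used strand is not given in the sources used here.

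The 10 genes, the other gene lists, and the tests were chosen with earlier results of these data known. Every one of the 10 genes was named, as were most called genes of the lists and the genes nearest to each called marker, whereas called markers of other cells are mostly given as counts. Some of these genes are not reported here and were left out of the list counts. List genes not called, and family genes singled out by level, were named after their values were seen. Alternatives were DESeq2 1.42.0 (size factors and Wald test), upper-quartile scaling, other expression filters and thresholds, only the libraries compared, a fit without *Gm26917* and *Gm42418*, the replicate number as a block, and leaving out each library. Proteins of the 10 genes were not analysed here.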

Additional observations from a re-analysis of the deposited data

How the results depend on the processing

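Of 158 single-gene values per comparison, obtained with the 10 genes under the alternatives, 151 kept their direction and side of the adjusted p threshold for CCL21+ versus RANK+ TECs, 133 for CCL21+ versus reporter-negative TECs, and 153 for RANK+ versus reporter-negative TECs. The fold and RPKM thresholds of a call were not part of this count. Leaving out 1 library at a time, the number of the 10 genes called between CCL21+ and reporter-negative TECs ranged from 0 to 3 and that of all genes from 657 to 2066 (main values 2 and 1720). The lowest values came without 1 of the 2 reporter-negative libraries, a fit in which the lone library was assumed to vary like the other populations. Values that changed sign were small or of sparse genes. The leave-one-out ranges of log2 fold change were -0.90 to 0.11 for *Plet1* in CCL21+ over RANK+ TECs, -0.014 to 0.69 for *Plet1*, -0.70 to 1.23 for *Ly6d*, and -8.69 to 0.25 for *Lgr6* in CCL21+ over reporter-negative TECs, and -0.48 to 0.061 for *Lgr5* in RANK+ over reporter-negative TECs. *Lgr5* in the last comparison was also at 0.027 with at least 10 counts required in every library. Under that filter *Ly6d* and *Lgr6* were not tested. The -8.69 of *Lgr6* came without CCL21+ #1 and was fitted against 0 counts in the remaining CCL21+ libraries. With the adjusted p-value alone, 11516 genes were called between CCL21+ and RANK+ TECs (6618 in the reported fit) and 10501 between RANK+ and reporter-negative TECs (6332). The cause was not tested where no value shows it. Fits without a library hold fewer samples. *Sox9*, however, lost its call between RANK+ and reporter-negative TECs without reporter-negative #1 through its log2 fold change (0.57). DESeq2 size factors moved the median log2 fold change of all genes for RANK+ over reporter-negative TECs by 0.14, to 0.20, and no gene called in any list changed direction under it or under upper-quartile scaling. DESeq2's Wald test also called *Ly6a* between CCL21+ and reporter-negative TECs, and the 10 genes then gave 3 calls. Without reporter-negative #1, 4 of the 10 genes were called between RANK+ and reporter-negative TECs in place of 6. In that comparison 7 of 12 other progenitor genes were called higher by upper-quartile scaling and by the DESeq2 Wald test in place of 4.

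Same-numbered CCL21+ and RANK+ libraries had correlated deviations from their means of 0.126, 0.0485, and 0.0707, each library correlating best with its own number, and those with reporter-negative libraries were negative. The deviations of the 2 reporter-negative libraries mirror each other, so that the negative values cannot decide on pairing. The numbers were not taken as pairs in the reported fit. With the replicate block, 6617, 1913, and 6324 genes and 5, 3, and 6 of the 10 were called in the 3 comparisons, and the added gene was *Ly6a* (log2 fold change 2.02 for CCL21+ over reporter-negative TECs).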
